A study of Mus musculus with 6 samples.

Results

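The S100 proteins are small calcium-binding proteins, and 8 of their genes were followed in neutrophils sorted from mouse lung: S100a8, S100a9, S100a11, S100a6, S100a10, S100a4, S100a1 and S100a13. All 8 were found by symbol, through their Ensembl identifiers, among the 55487 genes of the deposited count table, and 7 of them passed the filter on low counts that left 15774 genes. The exception was S100a4. The members were given as a list of family genes, and the table holds 9 more genes of the family.

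Each S100 protein has a pair of EF-hand calcium-binding loops and usually works as a dimer that changes shape when calcium rises. S100A8 and S100A9 (MRP8 and MRP14) pair to form calprotectin, which is among the most abundant cytosolic proteins of the neutrophil, binds zinc and manganese away from microbes, and acts as an alarm signal through TLR4 and RAGE once released. S100A11, S100A6, S100A4 and S100A10 are made by many cell types and bind annexins, myosin or other partners, and S100A10 has lost calcium binding and sits in a complex with annexin A2.

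The 3 mutant libraries came from Mrp8-Cre;TGFbR2-fl/fl mice, which carry the transgene Tg(S100A8-cre,-EGFP)1Ilw, from a B6.Cg line, and the loxP-flanked allele Tgfbr2tm1Karl, from a B6;129 line. The 3 wt libraries came from Cre-negative littermates with the same loxP-flanked alleles (TGFbR2-fl/fl), so both groups carry the floxed receptor gene for TGF-beta. The labels used here give no age. The lungs were perfused with PBS and digested with liberase, Ly6G-positive cells were sorted, and poly(A) RNA was copied by SMART-Seq v2 from 2 ng of total RNA and sequenced as paired reads of 151 cycles. The question of the design is what the neutrophils transcribe when the receptor gene is targeted through the S100A8 promoter. That promoter is active in the neutrophil lineage and also in some of its myeloid precursors, and the driver therefore shares its name with a gene measured here. The transgene uses a human S100A8 promoter. Reads from Cre and EGFP were not analysed here, and effects of carrying the transgene and of losing the receptor cannot be told apart because no Cre-positive control without floxed alleles is among these libraries.

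Library totals ran from 30403494 to 35906780 counts, and a gene with 3 counts stood at 0.0829 to 0.102 CPM (read counts scaled by library total and TMM factor), a floor that covers counting error only. Tgfbr2 was at 187 ± 15.4 CPM in mutant libraries, against 191 ± 8.74 CPM in wt libraries (SD, n = 3 each), with a log2 fold change of -0.03 and an adjusted p of 0.996 by edgeR, and since the gene-level count pools all exons it does not check the deletion. The 10 neutrophil markers, S100a8 and S100a9 among them, summed to 22310 to 28073 CPM in mutant libraries, against 23041 to 24504 CPM in wt libraries. All 16 lists of cell type markers gave counts. In 3 of them the sums in mutants lay above those in wt, as for 6.82% of all genes taken singly. In the other lists the sums overlapped between groups. The 9 alveolar macrophage markers summed to 618 to 1273 CPM in mutant libraries, against 352 to 567 CPM in wt libraries, the 7 fibroblast markers to 456 to 757 CPM in mutant libraries, against 356 to 430 CPM in wt libraries, and the 5 erythroid markers to 3.07 to 3.96 CPM in mutant libraries, against 0.788 to 2.78 CPM in wt libraries. Only 2 of the 5 erythroid markers passed the filter on low counts. Log2 fold changes were positive for all 9 alveolar macrophage and 6 of 7 fibroblast markers. The values were also positive for 6 of 7 tested alveolar epithelial and 3 of 4 smooth muscle markers, whose sums overlapped between groups. They were negative for all 7 endothelial and 6 of 10 neutrophil markers, against 49.3% of all genes. The part of these cell types in the S100 results was not tested. The labels do not tie each library to 1 animal, and the spread behind each p-value is that between libraries. In bulk RNA, fewer cells of a type and less RNA per cell cannot be told apart.

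The genes lie close together. All 8 map to chromosome 3 in GRCm38, where S100a8 (ENSMUSG00000056054.9, plus strand, 90668978 to 90670035) and S100a9 (ENSMUSG00000056071.12, minus strand, 90692632 to 90695721) point towards each other with 22597 bases between their ends. S100a1 (ENSMUSG00000044080.9, minus strand, 90511034 to 90514392) and S100a13 (ENSMUSG00000042312.9, plus strand, 90514435 to 90524581) point away from each other, and their annotated starts are 43 bases apart. S100a4 (ENSMUSG00000001020.8, 90603771 to 90606045) and S100a6 (ENSMUSG00000001025.8, 90612882 to 90624181) lie between these pairs on the plus strand. S100a11 (ENSMUSG00000027907.4, 93520488 to 93526287) and S100a10 (ENSMUSG00000041959.14, 93555080 to 93564643), also on the plus strand, form a separate pair farther along the chromosome.

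The promoter windows of the 3 most abundant members are shown because the Cre driver uses the human counterpart of the first of them and because these genes were low in the same mutant libraries. They come from RefSeq on GRCm38.p6 and run from 250 bases before to 50 after the start annotated there, at chr3:90668821-90669120 (plus strand) for S100a8, chr3:90695672-90695971 (minus strand) for S100a9 and chr3:93520246-93520545 (plus strand) for S100a11. Capitals mark matches to the letters TATAAA.
S100a8: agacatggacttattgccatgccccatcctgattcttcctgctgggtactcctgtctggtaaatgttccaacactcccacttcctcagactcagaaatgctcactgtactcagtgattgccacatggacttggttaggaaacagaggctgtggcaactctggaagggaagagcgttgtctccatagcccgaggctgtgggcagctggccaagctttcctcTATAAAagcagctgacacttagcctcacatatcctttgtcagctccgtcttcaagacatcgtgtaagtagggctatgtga
S100a9: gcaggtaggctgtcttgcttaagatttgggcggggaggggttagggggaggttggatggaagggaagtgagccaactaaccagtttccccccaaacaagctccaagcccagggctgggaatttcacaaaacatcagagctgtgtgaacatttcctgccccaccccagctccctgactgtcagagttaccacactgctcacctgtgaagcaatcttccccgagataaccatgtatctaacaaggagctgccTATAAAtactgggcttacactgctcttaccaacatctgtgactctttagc
S100a11: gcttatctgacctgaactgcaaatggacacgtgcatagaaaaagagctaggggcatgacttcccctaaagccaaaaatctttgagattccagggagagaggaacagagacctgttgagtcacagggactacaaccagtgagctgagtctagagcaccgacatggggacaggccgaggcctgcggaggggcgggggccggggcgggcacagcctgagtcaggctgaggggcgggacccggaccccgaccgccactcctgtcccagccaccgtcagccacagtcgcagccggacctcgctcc
Promoter windows were found for 7 of the 8 members, all but S100a10. The letters TATAAA, searched on both strands, occurred in the windows of S100a8 (beginning 30 bases before the start), S100a4 (31 bases before) and S100a9 (at the annotated start itself), and in 13.6% of all 32851 windows. The GC box letters GGGCGG, searched on either strand, occurred 3 times in S100a11, once in S100a9 and in no other member's window, against 35.7% of all windows. S100a11 also had the most G and C of the 3, at 61.7% of bases, against 51.3% for S100a9, 50% for S100a8 and a median of 52.7% over all windows. The myeloid factor PU.1 binds purine-rich sites with the core GAGGAA, and these letters on either strand were found in S100a8, S100a11 and S100a4 and in 28.3% of all windows. The C/EBP core letters TTNNGNAA, on either strand, matched once in S100a8, 2 times in S100a9 and in 40.7% of all windows. A match in these letters is a description of the sequence and not a binding site.

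Levels of different genes were compared per exon length, as TPM (counts divided by the exon length listed in the table and scaled to the same sum in every library). S100a8 was highest, at 4823, 7027 and 4929 TPM in mutants and 8319, 8452 and 8313 TPM in wt. S100a9 followed at 4229, 7510 and 4687 TPM in mutants and 7144, 7420 and 8051 TPM in wt. The order of the pair was not separated: S100a8 was above S100a9 in 5 of the 6 libraries, with a ratio of their TPM between 0.936 and 1.16. In rank by TPM among all genes, S100a8 stood between 16 and 22 in mutants and between 10 and 12 in wt, and S100a9 between 14 and 28 in mutants and between 13 and 14 in wt. Together the calprotectin genes gave 88.8% to 90.5% of the TPM of all 17 family genes in the table in mutants and 90.8% to 91.9% in wt.

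The remaining members fell into steps. S100a11, whose product binds annexin A1, was at 690 to 1460 TPM in mutants and 1063 to 1283 TPM in wt, so that S100a9 was 5.14 to 6.72 times as high within a library. S100a6 (calcyclin) was at 116 to 203 TPM in mutants and 156 to 194 TPM in wt, below S100a11 in all 6 libraries. S100a1, best known from heart and skeletal muscle where it regulates calcium release, was at 19.9 to 34.4 TPM in mutants and 20.6 to 25.1 TPM in wt. The lowest of the tested members were S100a10, at 14.7 to 15.4 TPM in mutants and 14.2 to 18.2 TPM in wt, and S100a13, which takes part in the release of FGF1 and IL-1 alpha without a signal peptide, at 9.91 to 14.7 TPM in mutants and 15.3 to 19.6 TPM in wt. These last ranges overlapped, and S100a10 was above S100a13 in 4 of 6 libraries. The listed exon length sums the exons of all annotated transcripts, 1367 bases for S100a6 and 1212 for S100a10 against 511 to 715 for the other members, which lowers TPM for genes with many annotated exons. The place of S100a10 below S100a1 depends on this length. In CPM, which is not divided by length, S100a10 was at 5.11 to 5.76 in mutants and 5.15 to 6.44 in wt. S100a1 was at 3.98 to 7.39 CPM in mutants and 4.26 to 5.09 CPM in wt.

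**Figure D1:**
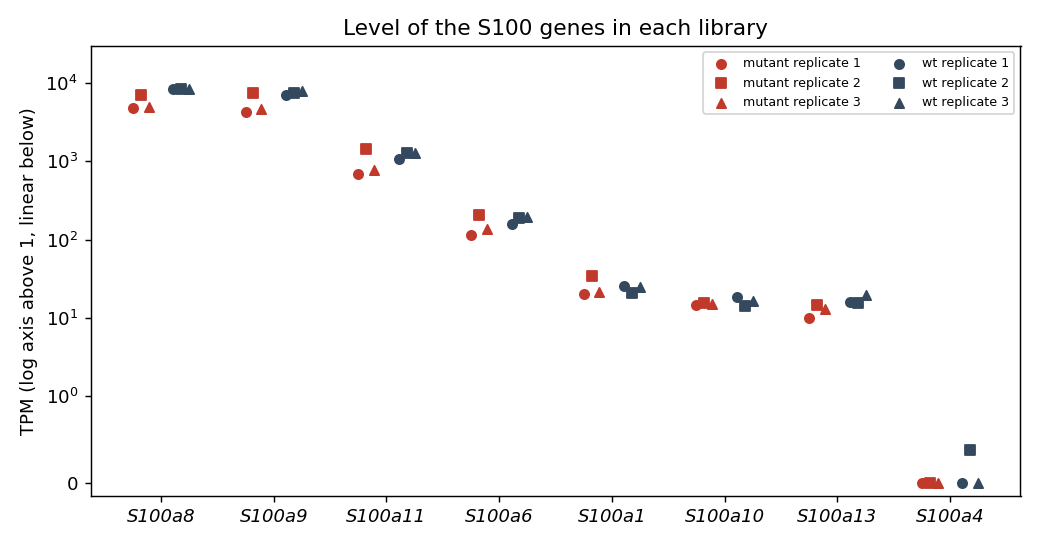
Level of each of the 8 S100 genes in TPM (axis logarithmic above 1 and linear below) in the 3 mutant libraries (red, left) and the 3 wt libraries (dark, right), 1 point per library. S100a8 and S100a9 lie between 4229 and 8452 TPM, the tested members span down to 9.91 TPM, and S100a4 has counts in 1 wt library only.

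S100a4, whose product binds non-muscle myosin and which is widely used as a marker of fibroblasts and of some macrophages, had 0 counts in all 3 mutant libraries and 0, 2 and 0 counts in wt. All 6 libraries were below the floor of 3 counts, no fold change is given, and the gene did not enter the test. Of the 584 exon bases listed for S100a4, 302 (51.7%) are also listed as exon of Gm42674, a gene annotated on the same strand that also shares exon bases with S100a3 and itself had 0 counts in every library. Whether reads over shared bases were discarded depends on a counting setting that the sources used here do not give, and its part in the low count was not tested. None of the other 7 members shared an exon base with another gene of the table. Fibroblast markers were counted in all 6 libraries. A processed copy of S100a11 on another chromosome, S100a11-ps, is also annotated, and reads matching both could have been lost or split.

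In the comparison of mutants with wt, S100a8 had the lower values in mutants. It was at 966, 1507 and 973 CPM in mutant replicates 1 to 3, against 1687, 1752 and 1688 CPM in wt replicates 1 to 3. All mutant libraries lay below all wt libraries, as for 6.21% of all genes, with mutant replicates 1 and 3 close to each other and mutant replicate 2 nearer to wt. The means were 1149 ± 310.2 CPM in mutant libraries, against 1709 ± 36.8 CPM in wt libraries (SD, n = 3 each), so that the coefficient of variation was 27.0% in mutants and 2.15% in wt. On the log2 scale the fold change was -0.57 ± 0.16 (SE), and its 95% interval ran from -0.92 to -0.23. By edgeR's quasi-likelihood test the unadjusted p was 0.00427 and the adjusted p over all genes 0.405, which does not pass 0.05. Of 12 other settings, 3 gave an adjusted p under 0.05. DESeq2's Wald test gave 0.0341, where 0.469% of all genes were called lower. With no filter on low counts edgeR gave 0.0317, where 0.111% of all genes were called lower. Without mutant replicate 2 it gave 0.0257, where 0.00601% of all genes were called lower and the log2 fold change was -0.82. In the other 9 settings the adjusted p ran from 0.125 to 0.774.

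S100a9 had the same library pattern with overlapping groups. It was at 637, 1211 and 696 CPM in mutant libraries, against 1089.9, 1156 and 1229.9 CPM in wt libraries. Mutant replicate 2 lay within the wt range and the other mutant libraries below it. The means were 848 ± 316 CPM in mutant libraries, against 1159 ± 70.04 CPM in wt libraries (SD, n = 3 each), a log2 fold change of -0.45 ± 0.21 (SE; adjusted p 0.754 by edgeR). Leaving out single mutant libraries moved this value, which was -0.80 without mutant replicate 2 (adjusted p 0.076 by edgeR) and -0.28 without mutant replicate 1.

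**Figure D2:**
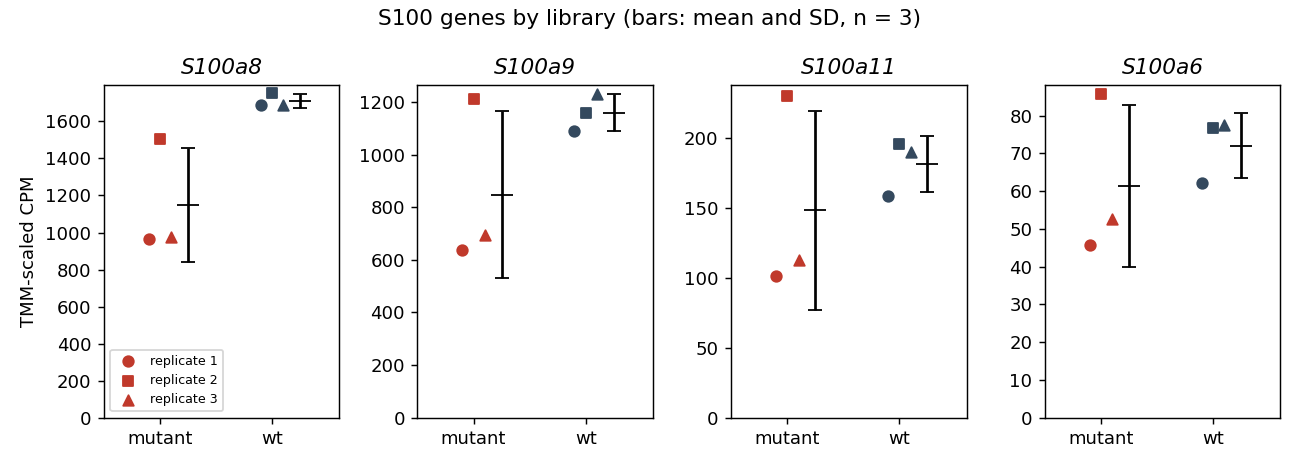
TMM-scaled CPM of S100a8, S100a9, S100a11 and S100a6 in each mutant library (left) and wt library (right), with the mean and SD of each group (n = 3). In each panel mutant replicates 1 and 3 lie below all 3 wt libraries, and mutant replicate 2 lies below them only for S100a8.

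The proteins of this pair act together, so their counts were also summed. S100a8 and S100a9 made up 0.162%, 0.264% and 0.172% of all counts in mutants and 0.277%, 0.289% and 0.291% in wt. The groups did not overlap, and the difference of -0.0864 percentage points had a two-sided exact permutation p of 0.1, the smallest that the 20 assignments of 3 against 3 libraries allow. Within each library the log2 ratio of S100a8 to S100a9 counts does not depend on library scaling. That ratio was 0.60, 0.31 and 0.48 in mutants and 0.63, 0.60 and 0.46 in wt. The SD was 0.143 in mutants and 0.0924 in wt. Its difference between groups was -0.0959 (exact permutation p = 0.5, two-sided). It was -0.16 without mutant replicate 1 and -0.02 without mutant replicate 2. With wt replicate 1 left out it was -0.06, and with wt replicate 3 left out -0.15.

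S100a11 and S100a6, the next most abundant members, also overlapped between groups. S100a11 was at 102, 231 and 113 CPM in mutant libraries, against 159, 196 and 190.1 CPM in wt libraries, with mutant replicate 2 above every wt library and the other mutants below. Its log2 fold change was -0.29 ± 0.27 (SE, adjusted p 0.937 by edgeR), and it was -0.76 without mutant replicate 2 and -0.08 without mutant replicate 1. S100a6, which binds annexins and the ubiquitin ligase adaptor CacyBP, was at 45.6, 85.8 and 52.7 CPM in mutant libraries, against 62.2, 76.6 and 77.4 CPM in wt libraries. It again had mutant replicate 2 highest, with a log2 fold change of -0.23 ± 0.22 (SE, adjusted p 0.939 by edgeR) that was -0.56 without mutant replicate 2 and -0.05 without mutant replicate 1. Summed with S100a4 and S100a10, these genes took 0.0154%, 0.0313% and 0.0176% of counts in mutants and 0.0226%, 0.0276% and 0.0272% in wt (exact permutation p = 0.4, two-sided). Their difference of -0.00441 percentage points was -0.00139 without mutant replicate 1, -0.00934 without mutant replicate 2 and -0.00251 without mutant replicate 3.

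The low members carried few counts and wide intervals. S100a10 was at 5.14, 5.76 and 5.11 CPM in mutant libraries, against 6.44, 5.15 and 5.84 CPM in wt libraries, with a log2 fold change of -0.12 and a 95% interval of -0.73 to 0.49. That fold change was -0.04 without wt replicate 1, -0.20 without wt replicate 2 and -0.19 without mutant replicate 2. S100a13 was at 2.05, 3.25 and 2.61 CPM in mutant libraries, against 3.32, 3.27 and 4.09 CPM in wt libraries, and its groups did not overlap, although the highest mutant and the lowest wt library nearly met. Its log2 fold change was -0.43 (95% interval -1.26 to 0.39; adjusted p 0.933 by edgeR), and it was -0.28 without mutant replicate 1 and -0.62 without mutant replicate 2. S100a1 was the only tested member with a positive log2 fold change, at 0.11 with a 95% interval of -0.64 to 0.87. It was at 3.98, 7.39 and 4.18 CPM in mutant libraries, against 5.09, 4.26 and 5.00 CPM in wt libraries, and its sign turned to -0.23 without mutant replicate 2, the library that was highest. S100a1 and its head-to-head neighbour S100a13 had fold changes of opposite sign, and both intervals include 0.

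**Figure D3:**
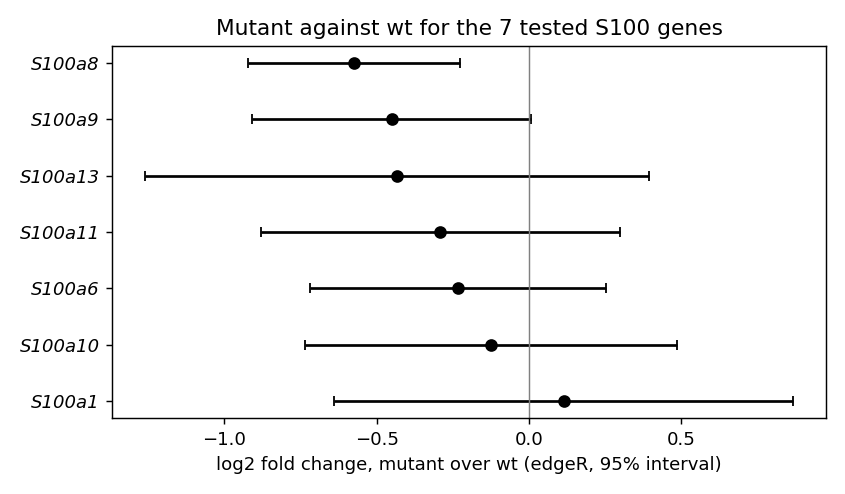
Log2 fold change of mutant over wt from edgeR for the 7 tested S100 genes, with 95% intervals. The interval of S100a8 runs from -0.92 to -0.23 and those of the other 6 genes include 0.

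Counted over the list, 0 of the 7 tested members passed an adjusted p of 0.05 by edgeR, against 0.00634% of all tested genes higher and 0% lower. With an unadjusted p under 0.05 in edgeR's quasi-likelihood test, 1 member was lower and 0 were higher, where 3.22% of all genes were lower and 3.51% higher. DESeq2 called 1 member lower, S100a8, and 0 higher, against 0.469% of all genes called lower and 0.514% higher, and limma-voom called 0. Each of these tools had 2 members under an unadjusted p of 0.05, S100a8 and S100a9, both lower. At that threshold DESeq2 had 3.86% of all genes lower and 4.07% higher, and limma-voom 3.58% lower and 4.04% higher. Mutants lay wholly below wt for 2 of the 7 members, S100a8 and S100a13, against 6.21% of all genes. Log2 fold changes were negative for 6 of the 7, against 49.3% of all genes, with a median of -0.29 for the members and 0.01 for all genes. Most members shared the same low mutant libraries, so these signs are not separate observations.

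The deviations by library show that sharing. In log2 CPM relative to the mean of the 6 libraries, all 7 tested members were below 0 in mutant replicates 1 and 3, and all 7 were above 0 in mutant replicate 2. In mutant replicate 1 the deviations ran from -0.64 for S100a11 to -0.11 for S100a10, and in mutant replicate 2 from 0.05 for S100a10 to 0.59 for S100a1. Other genes of over 500 and up to 800 exon bases showed a like pattern in the mutant libraries. Among 32 other tested genes of over 500 and up to 800 exon bases that averaged 10 CPM or more, the median deviation was -0.25, 0.33 and -0.23 in mutant replicates 1 to 3 and -0.13, 0.16 and 0.07 in wt replicates 1 to 3. Their median log2 fold change was -0.07, and it was -0.13 for 18 genes of up to 500 bases. It was 0.003 for 240 genes of 801 to 1500 bases and 0.03 for 1287 genes of 1501 to 3000 bases. For 5329 longer genes it was -0.02. The median deviation of the 32 genes, like the members, was low in mutant replicates 1 and 3 and high in mutant replicate 2. S100a8 deviated by 0.28, 0.34 and 0.29 in wt replicates 1 to 3, above the median of the 32 genes in each. Among 240 genes of 801 to 1500 bases, the range that holds S100a6 and S100a10, the median deviation was -0.15, 0.13 and -0.02 in mutant replicates 1 to 3 and -0.09, 0.15 and -0.04 in wt replicates 1 to 3, so that mutant replicate 3 was near 0. Among 18 other genes of up to 500 bases, the median deviation was -0.04, 0.17 and -0.18 in mutant replicates 1 to 3. In wt replicates 1 to 3 it was 0.01, 0.11 and -0.01. Mutant replicate 1 was thus near 0 for these shortest genes. The part of exon length in these results was not tested.

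**Figure D4:**
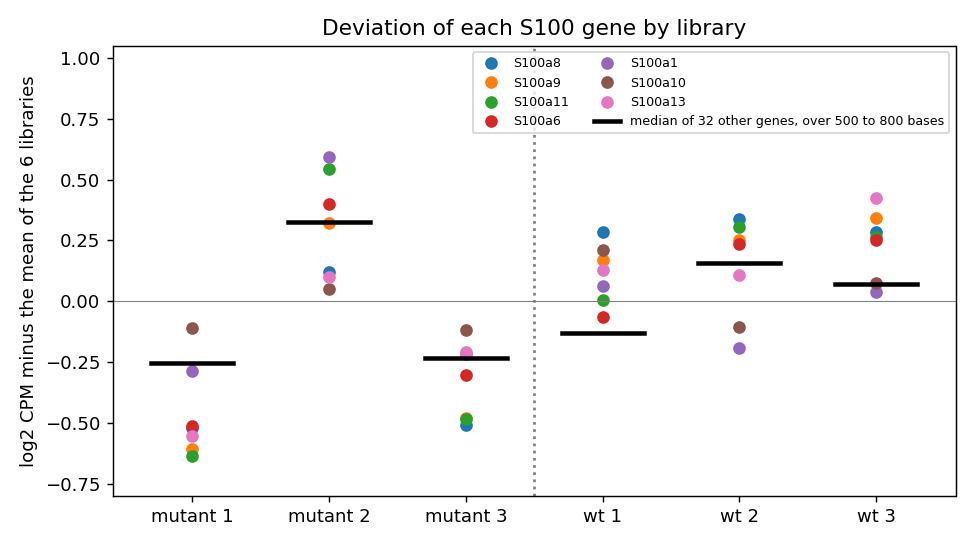
Log2 CPM minus the mean over the 6 libraries for each tested S100 gene (points), in the 3 mutant libraries (left of the dotted line) and the 3 wt libraries (right), with the median of 32 other genes of over 500 and up to 800 exon bases (black lines, at -0.25, 0.33 and -0.23 in mutants). All members lie below 0 in mutant replicates 1 and 3 and above 0 in mutant replicate 2.

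The genes whose library profile lay closest to each calprotectin gene were found by the root mean square difference of centred log2 CPM over the 6 libraries, among 6910 genes averaging 10 CPM or more. For S100a8 these were Lrg1, a secreted glycoprotein stored in neutrophil granules (difference 0.0922 on the log2 scale), Ifitm1, an interferon-induced membrane protein (0.0922), and Tnfaip8l2 (0.0988), with S100a9 in place 5 at 0.110. Lrg1 was at 860.2, 1164 and 747 CPM in mutant libraries, against 1461, 1334 and 1299 CPM in wt libraries. For S100a9 the closest were the ribosomal protein gene Rps16 (0.0701), the copper chaperone gene Atox1 (0.0973) and Cd52 (0.105), which encodes a small surface glycoprotein of leukocytes, with S100a8 in place 4. Rps16 was low, at 10.7, 21.7 and 11.7 CPM in mutant libraries, against 17.5, 20.1 and 23.1 CPM in wt libraries, and copies of ribosomal protein genes can take its reads. The listed exon lengths were 1408 bases for Lrg1, 1094 for Ifitm1 and 1122 for Tnfaip8l2. For Rps16, Atox1 and Cd52 they were 1266, 541 and 1187 bases, so that only Atox1 was as short as the calprotectin genes.

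Among the 9 family genes that are not members, 3 passed the filter. S100a16, a widely expressed family gene, was at 41.8, 46.3 and 41.5 CPM in mutant libraries, against 37.0, 39.2 and 39.2 CPM in wt libraries, so that every mutant library lay above every wt library, as for 6.82% of all genes. Its log2 fold change was 0.17 ± 0.13 (SE, adjusted p 0.917 by edgeR), and its mutant libraries did not show the low values of replicates 1 and 3 seen for S100a8. S100a7a, related to the skin protein psoriasin, was at 1.17 ± 0.258 CPM in mutant libraries, against 0.490 ± 0.436 CPM in wt libraries (SD, n = 3 each), and S100a3 at 0.520 ± 0.272 CPM in mutant libraries, against 0.608 ± 0.517 CPM in wt libraries, with adjusted p of 0.882 and 0.996 by edgeR. The other 6 had at most 14 counts in a library, and S100z had 0 in all.

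Receptors through which S100 proteins signal gave no called gene in edgeR: of 12 tested, 6 were on the positive and 6 on the negative side (median log2 fold change 0.01, as over all genes, of which 49.3% were negative). In edgeR 1 in each direction had an unadjusted p under 0.05, against 3.51% of all genes higher and 3.22% lower, and DESeq2 called 1 higher, against 0.514% of all genes. That gene was Ager, which encodes RAGE, at 98.0 ± 39.5 CPM in mutant libraries, against 54.8 ± 10.02 CPM in wt libraries (SD, n = 3 each; adjusted p 0.484 by edgeR and 0.049 by DESeq2). By library it was at 69.5, 81.4 and 143 CPM in mutants, highest in mutant replicate 3, and 48.5, 66.4 and 49.6 CPM in wt. Ager is also a defining marker of alveolar type 1 epithelium, and the 9 alveolar epithelial markers, Ager among them, summed to 617 to 1109 CPM in mutant libraries, against 341 to 634 CPM in wt libraries. Their part in this value was not tested. Cd33, a sialic acid-binding receptor that binds S100A9 in humans, was at 1139 ± 142 CPM in mutant libraries, against 1411 ± 116 CPM in wt libraries (adjusted p 0.593 by edgeR), and the S100B receptor gene Alcam at 114 ± 14.7 CPM in mutant libraries, against 97.4 ± 4.52 CPM in wt libraries (adjusted p 0.808 by edgeR).

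Of 23 tested binding partners of S100 proteins, 11 were positive and 12 negative (median -0.01), against 49.3% negative over all genes. None passed in edgeR (0 of 23), and DESeq2 called 1 in each direction, against 0.514% of all genes higher and 0.469% lower. In edgeR 2 higher genes and 1 lower gene had an unadjusted p under 0.05, against 3.51% of all genes higher and 3.22% lower. Vim, the intermediate filament gene vimentin, was at 228 ± 15.9 CPM in mutant libraries, against 336 ± 33.95 CPM in wt libraries (SD, n = 3 each; log2 fold change -0.56, adjusted p 0.263 by edgeR and 0.00065 by DESeq2). Il1a, a cytokine released together with S100A13, was at 92.7 ± 13.3 CPM in mutant libraries, against 50.02 ± 11.6 CPM in wt libraries (log2 fold change 0.89, adjusted p 0.276 by edgeR and 0.00104 by DESeq2). Anxa5, a phosphatidylserine-binding annexin, was at 151 ± 23.4 CPM in mutant libraries, against 120.1 ± 3.71 CPM in wt libraries (adjusted p 0.636 by edgeR).

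Transcription factors that regulate S100a8 and S100a9 gave 12 negative and 6 positive log2 fold changes among 18 tested, where 49.3% of all genes were negative, a median of -0.02, and 0 calls by edgeR or DESeq2. In edgeR 2 of the 18, both lower, had an unadjusted p under 0.05, against 3.22% of all genes lower. Hif1a, the oxygen-regulated subunit of HIF-1, was at 108 ± 9.89 CPM in mutant libraries, against 149.8 ± 20.5 CPM in wt libraries (SD, n = 3 each; log2 fold change -0.48, adjusted p 0.406 by edgeR and 0.054 by DESeq2). Cebpd, a C/EBP factor of the myeloid lineage, was at 311 ± 14.04 CPM in mutant libraries, against 370.5 ± 35.3 CPM in wt libraries, and Klf4, a zinc finger factor, at 12.3 ± 3.63 CPM in mutant libraries, against 18.1 ± 3.65 CPM in wt libraries (adjusted p 0.675 and 0.759 by edgeR). Genes of calcium entry and calcium sensing gave 17 negative and 12 positive values among 29 tested, again beside 49.3% negative over all genes, a median of -0.08, and 0 calls by edgeR or DESeq2. The unadjusted p in edgeR was under 0.05 for 2 of the 29, both lower, against 3.22% of all genes lower. They were the calcium channel gene Trpm2, at 894 ± 82.8 CPM in mutant libraries, against 1079.7 ± 70.2 CPM in wt libraries, and the calcium release channel gene Itpr2, at 96.4 ± 11.2 CPM in mutant libraries, against 120.4 ± 4.31 CPM in wt libraries (adjusted p 0.593 and 0.608 by edgeR). The next by p, the actin bundler gene Lcp1, was at 5299 ± 294 CPM in mutant libraries, against 6019 ± 581 CPM in wt libraries (adjusted p 0.765 by edgeR).

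**Figure D5:**
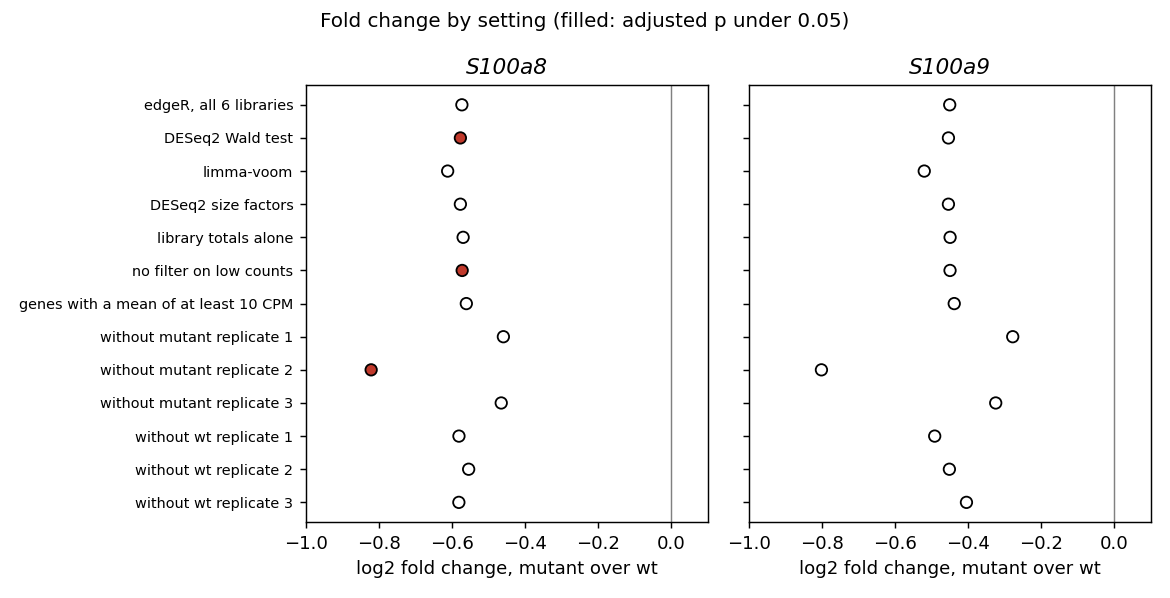
Log2 fold change of S100a8 (left) and S100a9 (right) under edgeR with all 6 libraries and under each of 12 other settings, with filled points where the adjusted p is under 0.05. S100a8 lies between -0.82 and -0.46 and passes in 3 of the 12 settings, and S100a9 lies between -0.80 and -0.28 and passes in none.

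Across the settings, the fold change of S100a8 kept its sign and ran from -0.82 to -0.46, as the plot of fold changes by setting shows. It passed the adjusted threshold in 3 of 12 settings, and in the other 9 its adjusted p ran from 0.125 to 0.774. S100a9 kept its sign between -0.80 and -0.28 with adjusted p from 0.076 to 0.969. Both sets of p-values are from edgeR except where DESeq2 or limma-voom replaced it.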

How the data were processed

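The 6 libraries, 3 mutant and 3 wt, were analysed from raw read counts per gene that the authors deposited, without normalization. STAR, featureCounts and the build GRCm38 are named in the submitters' processing notes. Their versions, the gene annotation and the handling of strand or shared exons: not given in the sources used here. The exon length per gene is from the authors' deposited table, per the file headers. Per the labels' protocols libraries were SMART-Seq v2, which does not mark strand and has no molecular identifiers, so PCR copies are counted. Symbols came from GENCODE M21: 55094 identifiers matched exactly, 300 without their version and 93 had none.

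Genes were filtered with filterByExpr, scaled by TMM (factors 0.972 to 1.03) and tested with edgeR 4.0.16 (R 4.3.3, quasi-likelihood test, Benjamini-Hochberg over 15774 genes). DESeq2 1.42.0 and limma-voom (limma 3.58.1) were alternatives. Single values per library were compared by exact permutation in scipy 1.17.1. Of these tests, edgeR, DESeq2 and limma-voom were run on simulated data with known fold changes, and the permutation test was not. Only edgeR had a pass criterion there, set for the larger simulated fold changes. Standard errors were taken as the absolute log2 fold change over the root of the F statistic. Replicate numbers follow accession order, and the labels, which call the wt mice littermates, do not say which libraries belong together.

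The members and lists were chosen with earlier results of these data known. Named are the members, Tgfbr2, the other tested family genes, up to 3 genes of smallest p in each list, and the 3 genes of closest profile to S100a8 and to S100a9.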

Additional observations from a re-analysis of the deposited data

How the results depend on the processing

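The alternatives were other tests, scalings and filters on low counts, and leaving out each library in turn. No paired analysis was possible because the labels give no replicate numbers and do not say which mutant and wt libraries share a litter or a processing batch. Genes past an adjusted p of 0.05 numbered 1 higher and 0 lower in edgeR, 81 higher and 74 lower in DESeq2's Wald test, 41 and 29 with no filter on low counts, 14 and 5 when only genes averaging 10 CPM or more were tested, and 0 to 1 higher and 0 to 1 lower when a library was left out. The count of S100 members past that threshold and lower was 0 in edgeR and 1, S100a8 in each case, in DESeq2 and with no filter. It was 0 to 1 when a library was left out, the 1 being without mutant replicate 2. The cause was not tested. Leaving out 1 library at a time, the log2 fold change of S100a1 ran from -0.23 to 0.28 and turned negative without mutant replicate 2. That of Tgfbr2 ran from -0.0995 to 0.019, and it was positive at 0.019 when mutant replicate 1 was left out and at 0.0121 when wt replicate 3 was. The other tested members kept their sign in all alternatives run, with S100a10 between -0.20 and -0.04 and S100a13 between -0.62 and -0.28. In the 7 alternatives run for each, the difference in the share of S100a8 and S100a9 ran from -0.119 to -0.0676 percentage points, that in their log2 ratio from -0.16 to -0.02, and that in the share of the 4 widely expressed members from -0.00934 to -0.00139, with no change of sign and no permutation p under 0.05, which 3 libraries against 3, or 3 against 2, cannot reach. For the log2 ratio, the alternative per exon length gives the same difference by construction and is no separate check. S100a1, S100a10 and S100a13 had 74 to 218 counts per library, so depth limits them most among the tested members. S100a4 is below the floor.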
